A study of Mus musculus with 10 samples.

Results

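The Ifi200 family was examined in 10 mouse melanomas, as 10 genes chosen by symbol from the deposited tables: Ifi202b, Ifi203, Ifi204, Ifi205, Mnda, Mndal, Aim2, Pyhin1, Pydc3 and Pydc4. All 10 symbols had a row among the 47643 genes measured, and 9 passed the filter on low counts, the exception being Pydc3. The family was taken up because Ifi202b had the lowest fitted difference between the groups of tumours, so the differences of its members between the groups are given as descriptions with no test. RNA sequencing reads were counted per gene in 5 tumours labelled Fes KO (Fes-/-) and 5 labelled Fes WT (Fes+/+). Every mouse of both groups carried Tyr::CreERT2, a tamoxifen-activated Cre recombinase under the melanocyte promoter Tyr, and 1 BRafV600E allele. Tumours were started with 5 mM 4-hydroxytamoxifen on the back skin, and no age or strain of the mice is given in the labels.

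Proteins of the family carry a pyrin domain for contact with other proteins, a HIN domain that binds DNA, or both, and many of the genes are induced by interferon and are active in myeloid cells. Aim2 detects DNA in the cytosol and assembles an inflammasome with the adaptor Pycard. The protein of Ifi202b has HIN domains but no pyrin domain, and is known in mice to bind DNA and to counteract Aim2. Its expression is known to differ between inbred strains of mice, being very low in C57BL/6 and high in NZB.

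Total counts were between 13226783 and 16599120 per tumour. Fes, the targeted gene, averaged 81.3 CPM (counts scaled to the effective size of the library) in Fes WT against 38.9 CPM in the Fes KO tumours. Its log2 fold change was -1.06 (SE 0.19), and its adjusted p by edgeR's quasi-likelihood method was 0.0846, so it did not pass the threshold of 0.05. Sox10, a regulator of the melanocyte lineage, averaged 636.5 CPM in Fes WT and 742.5 CPM in the other group. Of 9 melanocyte markers, 0 were called by edgeR, where 0.175% of all genes tested were called. At an unadjusted edgeR p below 0.05, which 9.62% of all genes passed in either direction, 4 were higher in Fes KO. The median log2 fold change of the 9 markers was 2.93. Of these markers 7 lay above 0 and 2 below. The pigment genes Mlana and Slc45a2 averaged 0.521 and 0.303 CPM in Fes WT against 6.44 and 4.94 CPM. Their highest single tumours had 27.2 and 16.5 CPM. Mitf and Ednrb averaged 34.7 and 44.6 CPM in Fes WT against 32.35 and 37.2 CPM. The mean log2 CPM of the markers overlapped, at 1.45 to 5.98 in Fes KO and 2.07 to 3.29 in Fes WT. The part of these genes in the members' levels was not tested. Surrounding tissue differed between tumours, with a summed level of 9 keratinocyte markers of 4155 CPM in Fes KO 2 against 11.2 to 184.6 CPM elsewhere, and the highest muscle markers in Fes WT 3. Xist was expressed in Fes KO 1, Fes KO 2 and Fes WT 5. The labels do not tell whether each tumour is from its own mouse, and p-values speak of the variation among these 10 tumours only. Whether the groups share a strain background is not stated, and it cannot be told apart from the Fes genotype.

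Ifi202b (ENSMUSG00000026535, chr1:173962568-173982744 in GRCm38, minus strand) was present in every Fes WT tumour and at or near 0 in every Fes KO tumour. Fes WT 1 to 5 had 776, 709, 651, 431 and 625 counts, or 50.7, 45.1, 42.7, 26.3 and 47.6 CPM. Fes KO 2 had 14 counts (95% Poisson interval 7.65 to 23.5), or 0.873 CPM, and the other 4 Fes KO tumours had 0. The groups did not overlap. The lowest Fes WT tumour was 30.1-fold above Fes KO 2, and at least 120.3-fold above each Fes KO tumour with 0 counts when these are set to a floor of 3 counts per library (at most 0.219 CPM). Such intervals and floors cover counting error only. The group means were 42.5 ± 9.52 and 0.175 ± 0.390 CPM (SD, n = 5 each), with a fitted log2 fold change (Fes KO minus Fes WT) of -7.82 (SE 0.90) that depends on the 14 counts of Fes KO 2. That tumour is also the one with abundant keratinocyte transcripts, and their part in its 14 counts was not tested. Ifi202b was the member among the 26 genes called by edgeR at an adjusted p below 0.05, where 0.175% of the 14816 genes tested were called (0.128% lower and 0.0472% higher in Fes KO). This contrast chose the family, so nothing is read from that count.

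Counts of related genes can be exchanged when a read matches several of them, so the annotated transcripts were compared. Ifi202b stood apart from its relatives. None of its 1648 windows of 50 bases occurred in a transcript of another gene. At 36 bases, 9 of its windows (0.542%) were shared, all with the pseudogene Gm18445, which lies next to it. Mnda was at the other end, with 72.8% of its 50-base windows found in other genes and 44.7% found in Ifi205. Pyhin1 shared 33.8%, nearly all with BC094916 of the same cluster, and Pydc3 20.9%, Ifi204 20.02%, Mndal 19.6%, Ifi205 18.6%, Pydc4 15.6%, Ifi203 12.4% and Aim2 0.742%. Values of Mnda and Pyhin1 are therefore the least certain. How the authors' counting treated reads with several matches is not given in the sources used here.

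**Figure D1:**
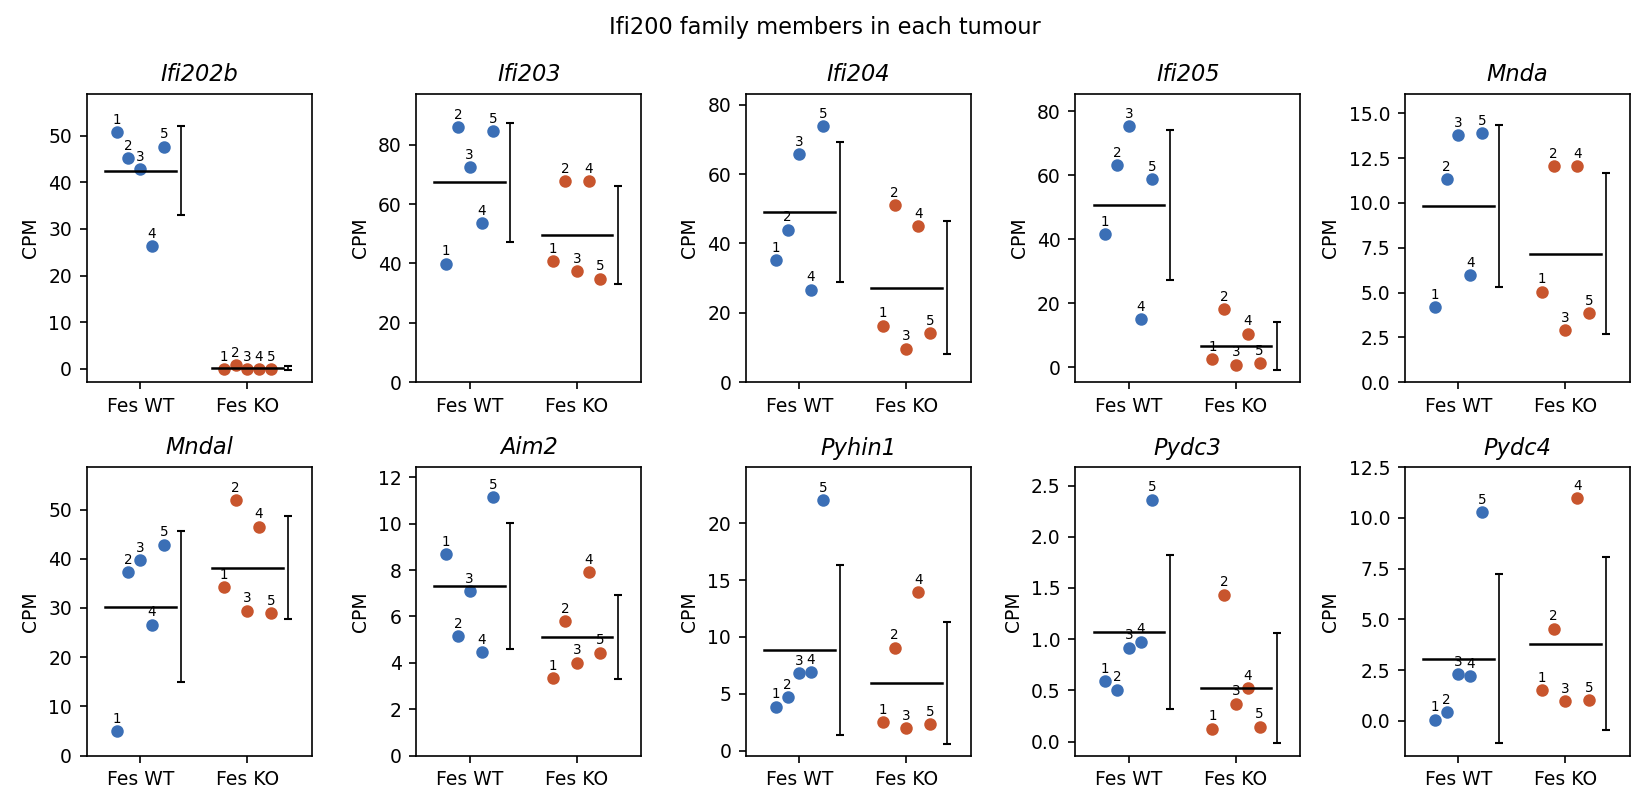
CPM of the 10 members (1 panel each) in 5 Fes WT and 5 Fes KO tumours, numbered by replicate, with the mean as a line and the SD as a bar. Ifi202b is at 26.3 to 50.7 CPM in Fes WT and at 0 to 0.873 CPM in Fes KO, while the groups overlap in the other 9 members.

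Promoter sequences are shown because the family is known for induction by interferon, and because several members share stretches of promoter that Ifi202b does not. They come from RefSeq in GRCm38.p6, the assembly of strain C57BL/6J, and hold 250 bases before and 50 after the annotated start. Such a promoter was found for 9 members, with 2 starts each for Ifi203 and Mndal, and none was at hand for Ifi204. Each was searched on both strands for GAAA followed by any 2 bases and GAAA, the core of the interferon-stimulated response element, and for TTCNNNGAA, the core of the interferon-gamma activated site. The first was found in 6 of the 9 members (7 of 11 promoters), against 3.44% of all 32851 promoters in the table. The second was found in Ifi202b, at -148 from the start, and in 8.30% of all promoters. The 2 motifs did not overlap in any member. In each line below, 20 bases stand on either side of the first motif, which is in capitals.
Ifi203: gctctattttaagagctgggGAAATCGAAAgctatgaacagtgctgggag
Mndal: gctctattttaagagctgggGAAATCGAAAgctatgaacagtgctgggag
Ifi205: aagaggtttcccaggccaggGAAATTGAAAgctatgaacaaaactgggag
Mnda: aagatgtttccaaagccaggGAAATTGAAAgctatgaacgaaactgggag
Pydc3: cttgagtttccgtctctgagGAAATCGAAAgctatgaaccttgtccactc
Pydc4: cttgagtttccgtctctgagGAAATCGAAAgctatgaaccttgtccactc

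These lines are chr1:173942498-173942547 for Ifi203, chr1:173880194-173880243 for Mndal, chr1:174031860-174031909 for Ifi205, chr1:173913054-173913103 for Mnda and chr1:173599316-173599365 for Pydc4 (all minus strand), and chr1:173673587-173673636 for Pydc3 (plus strand). In these lines the motif began between -134 (Ifi205) and -35 (Ifi203) from the start. A further match on the opposite strand lay at 24 bases past the start of Ifi205, and another at -54 from the second start of Mndal. The promoters of Ifi203 and Mndal shared a run of 139 bases, those of Pydc3 and Pydc4 1 of 135 bases and those of Ifi205 and Mnda 1 of 45 bases. The Ifi202b promoter (chr1:173982795-173983094, minus strand) shared no run over 11 bases with the other promoters examined, and the same held for Pyhin1 (longest run 11) and Aim2 (longest run 9). It holds no match to the first motif, and its TTCNNNGAA match is in capitals here.
Ifi202b: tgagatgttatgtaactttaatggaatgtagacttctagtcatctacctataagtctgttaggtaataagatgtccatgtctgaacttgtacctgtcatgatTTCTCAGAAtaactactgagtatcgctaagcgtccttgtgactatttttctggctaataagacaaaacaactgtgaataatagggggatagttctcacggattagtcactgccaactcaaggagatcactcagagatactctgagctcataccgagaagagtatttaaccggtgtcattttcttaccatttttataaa

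Neither motif was found in the windows of Aim2 and Pyhin1. A match is a description of letters, and binding to these windows was not measured.

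Aim2 and Ifi204, DNA sensors of the family, are described next. The family was chosen for the size of the Ifi202b difference, so nothing is read from theirs being smaller. Aim2 (chr1:173350879-173466040, plus strand) was at 8.69, 5.16, 7.09, 4.46 and 11.1 CPM in Fes WT 1 to 5 and at 3.34, 5.80, 4.01, 7.91 and 4.45 CPM in Fes KO 1 to 5. The groups overlapped, with Fes KO 2 and Fes KO 4 inside the Fes WT range, and the log2 fold change was -0.52 (SE 0.31). Ifi204 (chr1:173747293-173766943, minus strand), the mouse relative of the human DNA sensor IFI16, was at 35.1, 44.0, 65.8, 26.7 and 73.8 CPM in Fes WT and at 16.3, 51.1, 9.68, 44.9 and 14.2 CPM in Fes KO. Again Fes KO 2 and Fes KO 4 lay within the Fes WT range and the other 3 lay below it. Its log2 fold change was -0.85 (SE 0.49).

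Ifi205 (chr1:174011998-174031810, minus strand), the member next to Ifi202b and a gene known in mouse macrophages as a regulator of the inflammasome adaptor, came second in size of difference. It was at 41.5, 63.2, 75.3, 15.1 and 58.8 CPM in Fes WT 1 to 5. In Fes KO 1 to 5 it was at 2.65, 18.1, 0.925, 10.5 and 1.31 CPM. Only Fes KO 2 reached the Fes WT range, above Fes WT 4, and the log2 fold change was -2.92 (SE 0.81), a mean 7.57-fold higher in Fes WT. In the edgeR fit Ifi205 was not among the genes called, while DESeq2 and limma-voom, each calling Ifi202b too, counted it as called (2 members each, where DESeq2 called 1.86% and limma-voom 0.776% of all genes).

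Ifi203, Mnda and Mndal lie together below Ifi202b on the chromosome and encode nuclear HIN-domain proteins. Ifi203 was at 40.0, 85.9, 72.3, 53.5 and 84.6 CPM in Fes WT 1 to 5, and at 40.9, 67.7, 37.4, 67.6 and 34.8 CPM in Fes KO 1 to 5. Its log2 fold change was -0.44 (SE 0.27). Mnda had -0.45 (SE 0.48), from 4.18 to 13.9 CPM in Fes WT and from 2.90 to 12.04 CPM in Fes KO. Both overlapped between the groups.

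Mndal was set apart by 1 tumour. It was at 4.96 CPM in Fes WT 1 (76 counts) and at 37.3, 39.7, 26.6 and 42.8 CPM in Fes WT 2 to 5. The 5 Fes KO tumours had 34.2, 52.0, 29.5, 46.5 and 28.9 CPM. Its log2 fold change was 0.34 (SE 0.45), and 0.06 without Fes WT 1. Mndal and Ifi203 overlap in the annotation by 37 exonic bases on the same strand, 1.02% of the exonic bases of Mndal. A further 118 bases (3.25%) of Mndal overlap with Gm38050, also on the same strand.

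Pyhin1 was at 3.85, 4.71, 6.83, 6.90 and 22.0 CPM in Fes WT 1 to 5 and at 2.52, 9.04, 1.97, 13.9 and 2.33 CPM in Fes KO 1 to 5. Its log2 fold change was -0.57 (SE 0.67), and the tumours highest in each group, Fes WT 5 and Fes KO 4, stood well above the rest. Pydc4 was at 0.0653, 0.445, 2.30, 2.20 and 10.3 CPM in Fes WT and at 1.51, 4.55, 0.986, 10.98 and 1.02 CPM in Fes KO, with 1 count in Fes WT 1 and 7 in Fes WT 2. Its log2 fold change of 0.33 (SE 1.05) became -0.59 without Fes KO 4 and 1.6 without Fes WT 5, so it has no stable direction. That of Pyhin1 was 0.10 without Fes WT 5. Pydc3, a pyrin-domain gene, had between 2 and 31 counts per tumour and was left out by the filter, at a mean of 1.07 ± 0.750 CPM in Fes WT and 0.520 ± 0.537 CPM in Fes KO (SD, n = 5 each). Of the 9 members tested, 7 had a log2 fold change below 0, where 47.6% of all genes tested did, and the median over all genes was 0.01. Ifi202b passed the filter through its level in Fes WT alone.

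Levels of different members can be compared per length. Per kilobase of annotated exon, Ifi202b was the highest member in Fes WT, at a mean of 25.04 CPM per kb (15.5 to 29.9), followed by Ifi204 at 13.8 (7.49 to 20.7), Ifi205 at 12.2 (3.61 to 18.04), Ifi203 at 10.03 (5.96 to 12.8) and Mndal at 8.35 (1.37 to 11.8). Mnda, Pyhin1, Aim2, Pydc4 and Pydc3 followed at 5.51, 2.50, 2.09, 0.447 and 0.204 CPM per kb. Each neighbour in this order overlapped with the next in its range over tumours. In Fes KO the order began with Mndal at 10.5 CPM per kb, Ifi204 at 7.65 and Ifi203 at 7.41. Ifi205 had 1.61 and Ifi202b 0.103 CPM per kb there.

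Within a tumour, the share of 1 member in the counts of a pair does not depend on the depth of the library. Ifi202b made up 39.2% to 59.1% of the counts of Ifi202b and Ifi204 in Fes WT, and 1.68% in Fes KO 2 (exact 95% interval 0.922 to 2.80). In Fes KO 4, with 687 counts of Ifi204, 0 counts of Ifi202b bounded its share at 0.536%. For Ifi205 with Ifi204 the share was 36.1% to 59.0% in Fes WT and 8.45% to 26.2% in Fes KO, with no overlap. For AI607873, another gene of the cluster, with Ifi204 the groups overlapped. Its share was 41.9% to 60.0% in Fes WT and 37.95% to 55.3% in Fes KO. How often other pairs of genes separate in this way was not computed.

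Mndal with Ifi203 ran the other way. Mndal took 40.8% to 45.5% of their counts in the 5 Fes KO tumours, 30.3% to 35.4% in Fes WT 2 to 5 and 11.1% (8.80 to 13.6) in Fes WT 1. Pydc4 took 30.4% to 44.1% of the counts of Pydc4 and Pyhin1 in Fes KO. In Fes WT 3, 4 and 5 it took 25.2%, 24.2% and 31.8%, in Fes WT 2 8.64% (3.54 to 17.0), and in Fes WT 1 1.67% (0.0422 to 8.94). These pairs were chosen after the counts were seen, and no test was made.

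**Figure D2:**
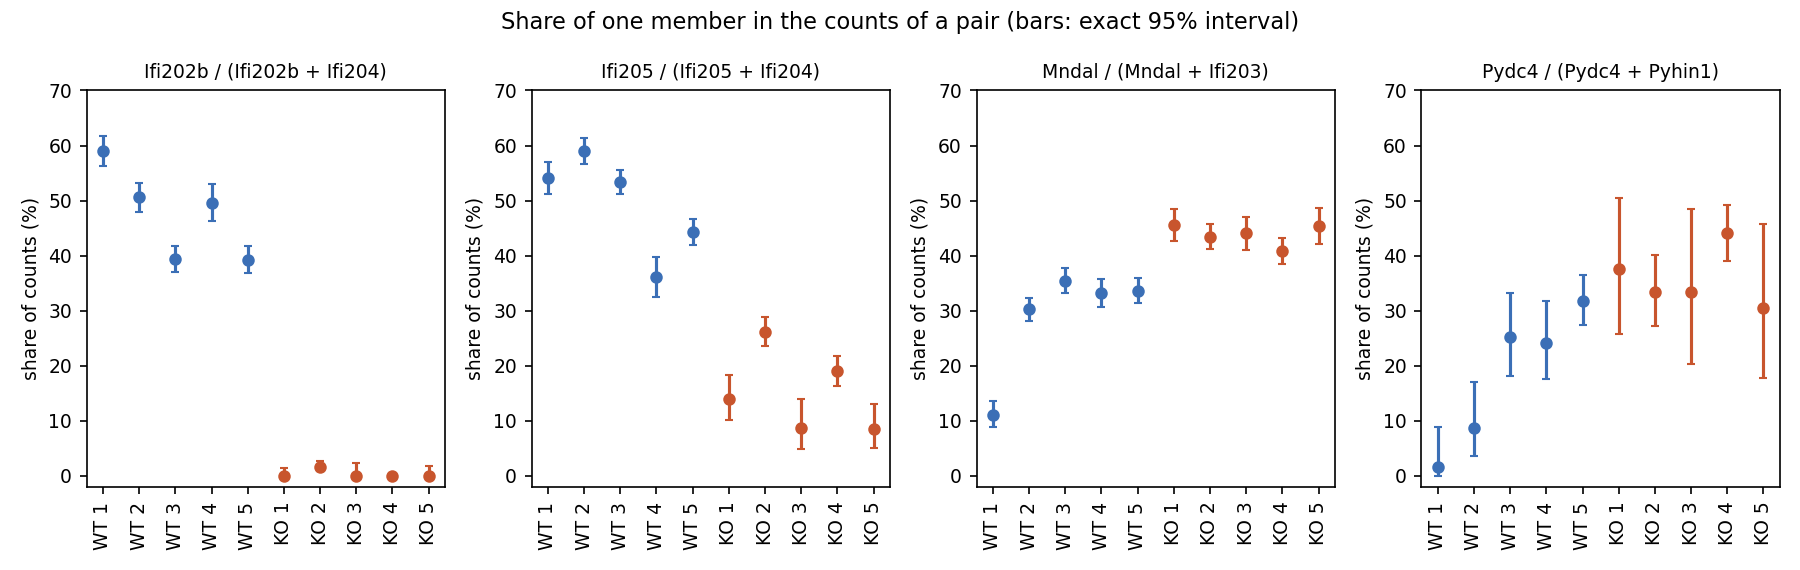
Share of the first member in the summed counts of a pair of members (percent, y axis) for each Fes WT (blue) and Fes KO (orange) tumour, with exact 95% binomial intervals as bars. Ifi205 takes 36.1% or more in Fes WT and 26.2% or less in Fes KO, and Mndal takes 11.1% in Fes WT 1 against 30.3% or more in the other tumours.

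Position along the chromosome was examined next. The 10 members lie within 680.9 kb, from Aim2 at the lower end to Ifi205 at the upper end. Another 11 genes are annotated between them, of which 5 had at least 10 counts in all and 3 were tested. AI607873, listed as Ifi207 in the annotation, ranged over 28.4 to 65.8 CPM in Fes WT and 10.1 to 44.4 CPM in Fes KO (log2 fold change -1.24, SE 0.44). Gm16340, the pseudogene Ifi203-ps, was at 8.43, 5.98, 6.23, 5.19 and 10.8 CPM in Fes WT 1 to 5. It was at 0.946, 0.935, 1.36, 3.01 and 2.33 CPM in Fes KO 1 to 5, without overlap, and had -2.09 (SE 0.38). Of all genes tested, 1.11% had every Fes KO tumour below every Fes WT tumour and 0.783% had every one above. Gm4955, listed as Ifi206, had 0.25 (SE 0.99). It had 1, 6, 20, 15 and 66 counts in Fes WT 1 to 5 and 17, 47, 7, 67 and 3 in Fes KO 1 to 5. Like Mndal and Pydc4 it was lowest of all tumours in Fes WT 1. Among the Fes WT tumours alone, Ifi203, Mnda and Pyhin1 were also lowest in Fes WT 1, while the other members, AI607873 and Gm16340 were not.

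Of these 3 genes 0 were called by edgeR, and DESeq2 and limma-voom each called Gm16340. Gm16340 shares 8.85% of the 50-base windows of Ifi203. Among genes too low to test, BC094916 (Ifi214) was at 0.820 ± 0.563 CPM in Fes WT against 0.115 ± 0.107 CPM (SD, n = 5 each). Gm18445, the pseudogene between Ifi202b and Ifi205, had 7, 20, 24, 5 and 11 counts in Fes WT 1 to 5 and 0 in every Fes KO tumour, at least 22.9-fold lower when the summed group is set to a floor of 3 counts. Olfr433, the next gene above Ifi205, had 9, 6, 2, 3 and 5 counts in Fes WT and 3 in Fes KO 2, with 0 in the other Fes KO tumours. It was named after its counts were seen.

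**Figure D3:**
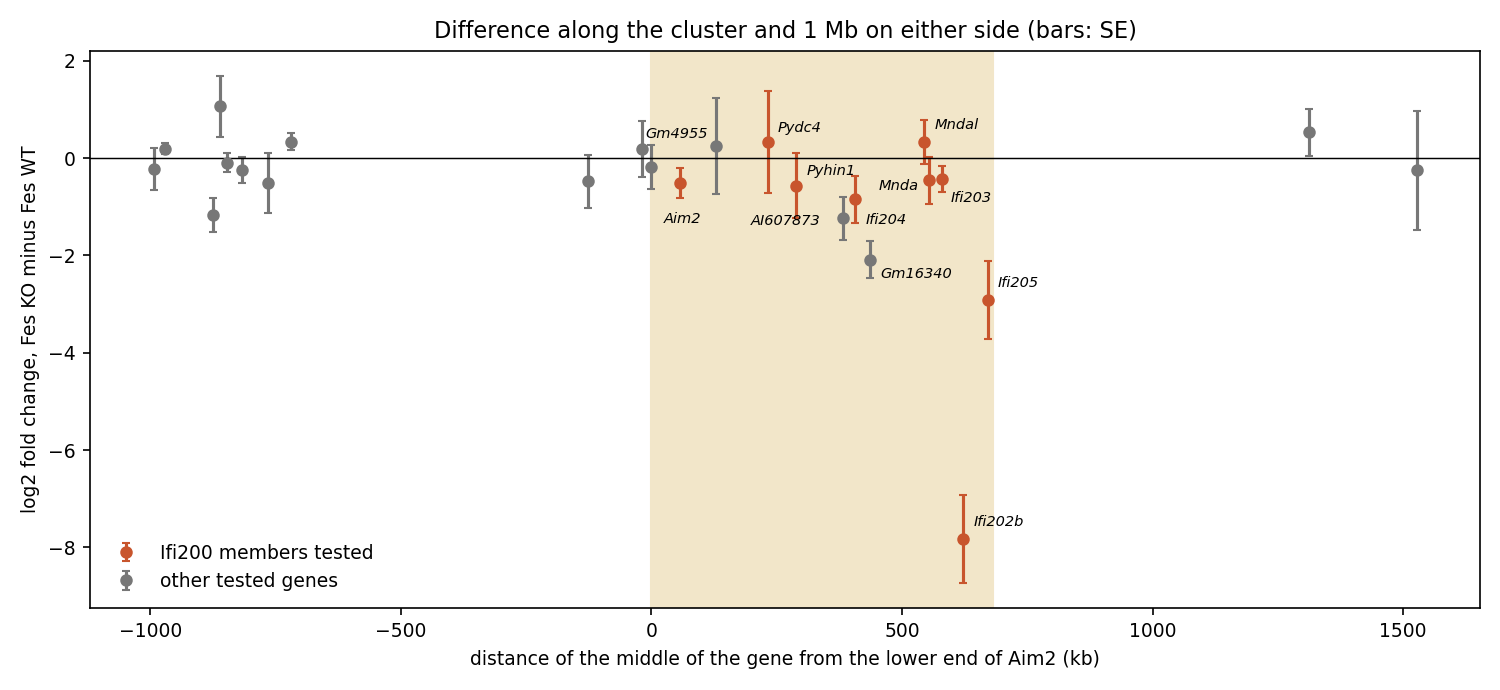
Log2 fold change (Fes KO minus Fes WT, bars SE) of every tested gene in the Ifi200 cluster (shaded) and within 1 Mb of it, against the distance of its middle from the lower end of Aim2 in kb. Ifi202b at -7.82 and Ifi205 at -2.92 lie at the upper end, while the genes outside the cluster lie between -1.17 and 1.06.

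Outside the cluster, 13 genes within 1 Mb were tested, 11 below it and 2 above. Of these 0 were called by edgeR, DESeq2 or limma-voom, and in 0 of the 13 did the groups separate. Their log2 fold changes ran from -1.17 to 1.06 with a median of -0.18, and 8 were below 0. Cadm3, whose span overlaps that of Aim2 on the other strand, had -0.18 (SE 0.45) and Ackr1, the gene beside it, 0.19 (SE 0.58).

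The other genes of the pathway were compared between the groups in the same fit. Of the type I interferon response genes, 0 of 39 tested were called by edgeR in either direction, with 1 at an unadjusted p below 0.05 (lower), a threshold that 9.62% of all genes passed. All 39 lay below 0, with a median log2 fold change of -0.42, which was 0.01 without Fes WT 5, the tumour with the highest interferon levels, and -0.94 without Fes KO 4. Ifitm3, a membrane protein that blocks virus entry, was at 427.5 ± 183 CPM in Fes WT against 305 ± 146 CPM (SD, n = 5 each). Ifi27 had a log2 fold change of -0.18 (SE 0.13), and Parp14, an interferon-induced ADP-ribosyltransferase, -0.65 (SE 0.35). Of the interferon-induced GTPases, which act against microbes inside cells, 0 of 13 were called, with 4 at an unadjusted p below 0.05 (lower), and the median was -0.84. Gbp3, Irgm1 and Irgm2 had -0.39 (SE 0.50), -0.43 (SE 0.44) and -0.83 (SE 0.34).

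Interferon receptors and signalling genes had a median of -0.19 with 0 of 19 called and 3 at an unadjusted p below 0.05 (lower). Their kinase gene Jak1 had -0.19 (SE 0.10), Stat3 -0.23 (SE 0.14) and the phosphatase gene Ptpn11 0.05 (SE 0.10). DESeq2 called 2 of these genes lower, the receptor gene Ifngr1 at -0.45 and the transcription factor gene Irf1 at -0.51. Cytosolic DNA sensing and STING genes had a median of 0.01, with 0 of 19 called, 2 lower and 2 higher at an unadjusted p below 0.05. Among them Hmgb1, a chromatin protein, had 0.30 (SE 0.10), Samhd1, which degrades nucleotides, -0.41 (SE 0.22) and Trim56 -0.27 (SE 0.17). Inflammasome and pyroptosis genes include partners of Aim2 but also other sensors, such as Nlrp3, and their regulators. They had a median of -0.41 with 20 of 22 below 0, 0 called and 3 at an unadjusted p below 0.05 (lower). Txnip, a thioredoxin-binding protein, had -1.03 (SE 0.29), Nek7, a partner of the sensor Nlrp3, -0.15 (SE 0.17) and the ATP-gated channel gene P2rx7 -0.23 (SE 0.22), and DESeq2 called Txnip. Limma-voom called 0 genes of these 5 lists, and DESeq2 called 0 of the other 3.

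Markers of several infiltrating cell types were lower in Fes KO, without passing the threshold. All 17 macrophage markers were detected and all 17 had a log2 fold change below 0, with 0 called by edgeR and 10 at an unadjusted p below 0.05. Their summed level ranged from 1136 to 2502 CPM in Fes KO and from 1802 to 3918 CPM in Fes WT. By mean log2 CPM, Fes KO 2 and Fes KO 4 had 6.20 and 6.501 and the other Fes KO tumours 5.27 to 5.398, against 6.04 to 7.01 in Fes WT. T cell markers summed to 3.58 to 21.6 CPM in Fes KO and 9.67 to 36.3 CPM in Fes WT, and B and plasma cell markers, of which 2 of 7 passed the filter, to 1.97 to 12.97 and 3.69 to 16.9 CPM. Of 6 neutrophil markers tested 5 lay below 0 (median log2 fold change -1.13), while Retnlg averaged 24.4 CPM in Fes WT against 35.1 CPM. The 8 dendritic cell markers had a median of -0.09, with 6 below and 2 above 0. In bulk tumours, fewer cells of a type and less RNA per cell cannot be told apart. Fes KO 2 and Fes KO 4, which overlap with Fes WT in macrophage markers, had 14 and 0 counts of Ifi202b, and the other Fes KO tumours had 0. The part of infiltrating cells in the group differences of the members, Ifi202b included, was not tested.

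Deviations of each tumour from its own group mean do not depend on the contrast that chose the family, so they were used to test whether members vary with macrophage or interferon-response levels. In all, 18 relations were computed over 10 tumours (9 members with each of 2 lists). They were tested by exact 2-sided permutation within groups, with Benjamini-Hochberg adjustment over the 18. Ifi202b had 0 counts in 4 Fes KO tumours, so its relations rest on the Fes WT tumours and Fes KO 2. They cannot decide whether Ifi202b varies with these levels. Aim2 rose and fell with the macrophage markers, with r = 0.85 (exact permutation p = 0.00313, adjusted 0.0187) and rho = 0.85 (exact permutation p = 0.00347, adjusted 0.0425). Without Fes KO 4 and Fes WT 1, farthest from the median of the markers, r was 0.77.

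Pyhin1 and Pydc4 varied with the type I interferon genes. Pyhin1 had r = 0.92 (exact permutation p = 7.64e-04, adjusted 0.0138) and rho = 0.83 (exact permutation p = 0.0101, adjusted 0.0608), and Pydc4 had r = 0.86 (exact permutation p = 0.00215, adjusted 0.0187) and rho = 0.85 (exact permutation p = 0.00472, adjusted 0.0425). Without Fes KO 4 and Fes WT 5, which had the highest interferon levels of their groups, r was 0.75 and 0.67. The other 15 relations did not pass. Among them were Ifi204 and Ifi205 with the macrophage markers, at r = 0.79 and 0.81 (adjusted exact permutation p = 0.116 each).

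The relation of Mndal with the macrophage markers was r = -0.07, and 0.92 without Fes WT 1, the tumour with 76 counts of Mndal and the highest macrophage level. Without that tumour 8 of 9 members passed with the macrophage markers, where 1 passed over all tumours. None passed with the macrophage markers without Fes KO 2, Fes KO 3 or Fes WT 4, where r of Aim2 was 0.86, 0.85 and 0.82 over 9 tumours. For the interferon list, where 2 passed, 0 passed without Fes KO 2 (r of Pyhin1 0.947) and 1 without each of Fes KO 3, Fes KO 4 and Fes WT 5.

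**Figure D4:**
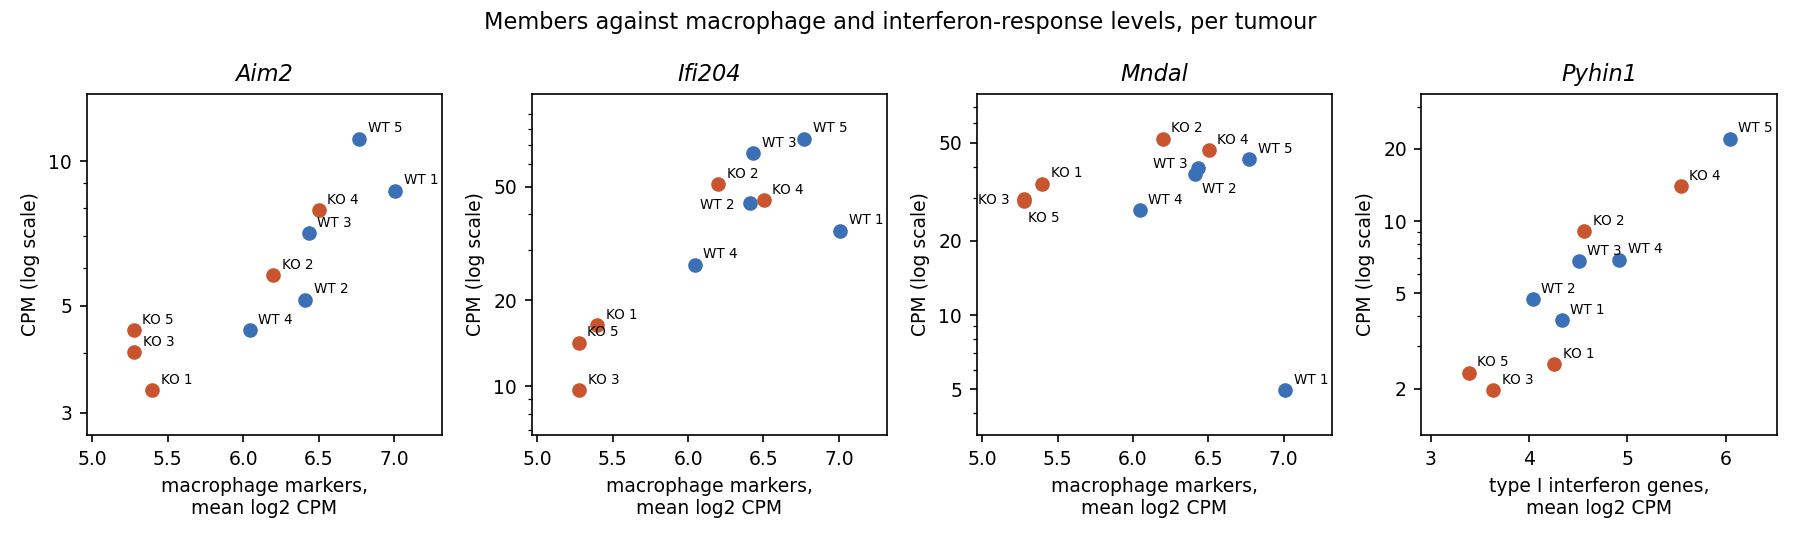
CPM of Aim2, Ifi204 and Mndal (log axis) against the mean log2 CPM of 17 macrophage markers, and of Pyhin1 against that of 39 type I interferon response genes, with 1 point per Fes WT (blue) or Fes KO (orange) tumour. Mndal in Fes WT 1, at 4.96 CPM, lies far below the other tumours although that tumour has the highest macrophage level.

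Members also varied with each other. Of the 36 pairs of tested members, 18 had r above 0.7 in deviations from the group means and 0 had r below 0, a description over 10 tumours that share their libraries. The highest was Ifi203 with Mnda at 0.954, followed by Ifi204 with Ifi205 at 0.951. Of the 50-base windows of Mnda, 72.8% occur in other genes, and Ifi204 and Ifi205 each share most with Mnda. The part of exchanged reads in these values was not tested. Ifi202b, whose deviations come almost wholly from Fes WT tumours and Fes KO 2, had 0.705 with Ifi205 and 0.12 with Pydc4.

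Genes whose pattern was most alike were taken from 13141 protein-coding genes. For Ifi202b, by Pearson r of log2 CPM over 10 tumours, these were the matrix protein gene Smoc2 (0.965), Scnm1 (0.958), Rnf150 (0.945), the guidance protein gene Slit3 (0.940) and Hebp1 (0.938). These values are not centred on the groups, so they largely restate the difference between Fes KO and Fes WT that chose the family (Smoc2 averaged 93.7 against 309.7 CPM). By deviations from the group means, Aim2 was closest to the chemokine receptor gene Ccr2 (0.976), Igsf6 (0.965) and the lectin gene Clec4a1 (0.961). Ifi204 was closest to Cd74 (0.967), the invariant chain of MHC class II, to Ccl19 (0.965) and to Flad1 (0.960), and Ifi205 to Flad1 (0.978), Slit2 (0.961) and Thy1 (0.955). Mnda was closest to the MHC class II gene H2-DMb2 (0.978), Ifi203 (0.954) and Sfrp4 (0.948). Ifi203 was closest to Unc13d (0.964), Mnda (0.954) and Actg2 (0.940), and Mndal to Hnrnpf (0.935), Gtf3a (0.908) and Thbs4 (0.905). The interferon-induced gene Oas3 was near both Pyhin1 (0.975) and Pydc4 (0.936). Pyhin1 was also near Slfn1 (0.967) and Cxcr2 (0.959), and Pydc4 near Ifi44 (0.940) and H2-T22 (0.939). These are the highest of many values and carry no test.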

How the data were processed

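RNA was sequenced from 5 Fes KO and 5 Fes WT tumours, grouped by sample title. The authors deposited raw counts per gene, whole numbers with a different total in each tumour. They also deposited log2 values, which from the values equal log2(count/size factor + 1) to within 5.41e-11. Per the submitters' processing notes the tools were STAR 2.51b, Subread 1.4.6 and FastQC, with mm10 and GRCm38 as builds. How strands and reads with several matches were counted was not given.

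Counts were tested with edgeR 4.0.16 in R 4.3.3 (TMM, filterByExpr, quasi-likelihood test, 2-sided, Benjamini-Hochberg over 14816 genes). A gene was called at an adjusted p below 0.05. SE is the log2 fold change divided by the square root of F. Log2 CPM used a prior count of 2. Alternatives included DESeq2 1.42.0 and limma 3.58.1. The fit was first tested on simulated data, where it recovered 34% of 100 2-fold changes and 89% of 100 4-fold changes. Of the 132 genes called there, 9 had not been changed. A list or group of genes with 0 called can therefore still hold changes of about 2-fold. Positions, exonic lengths and transcripts are from GENCODE M21 (GRCm38), in which 47224 of 47643 genes were found.

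The members and lists were chosen with earlier results of these data known. Named genes are the members, genes between them, up to 3 genes of each list (called ones, then the highest CPM) and the most alike genes. No tumour or column was left out of the reported fits. A further allele that both groups carried is not reported here.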

Additional observations from a re-analysis of the deposited data

Results flagged for a closer look

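Single tumours were compared with the rest of their group for the 10 members and 3 further cluster genes, over 26 groups of 5 tumours. The gap of the highest or lowest tumour to the next was divided by the range of the group in log2 CPM and compared with 0.71, the 95% critical value of Dixon's test, which chance passes in about 1 in 20 groups. It was passed 4 times. Ifi202b in Fes KO 2 had a ratio of 1.0, because it had 14 counts and the other Fes KO tumours 0. Ifi202b in Fes WT 4 had 0.739, at 26.3 CPM, and AI607873, another gene of the cluster, in the same tumour had 0.735, at 28.4 CPM. Mndal in Fes WT 1 had 0.778, at 4.96 CPM (76 counts).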

How the results depend on the processing

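Over all genes, 26 were called by edgeR. DESeq2 called 270, limma-voom with quality weights 115, and edgeR 64 without the 3 Xist-expressing tumours. With 1 tumour left out the count was 10 to 54: 10 without Fes KO 1 or Fes KO 3, 12 without Fes KO 5, 15, 11 and 16 without Fes WT 1, Fes WT 2 and Fes WT 4, and 54 without Fes WT 5. With the replicate number as a block it was 4 genes and 0 members. The numbers do not pair the tumours: 2 of 5 same-numbered pairs had a correlation of deviations above 0.1 (-0.38 to 0.17), and 1 of 10 tumours correlated best with its own number.

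Ifi202b was lower in Fes KO in every fit, at -7.50 to -12.34 with 1 tumour left out. It had -10.07 with limma-voom, -12.31 without the Xist-expressing tumours and -12.34 without Fes KO 2 and Fes WT 3. Without Fes KO 2 the group is at 0 counts, so that value depends on the prior count. The number of called members was 2 with DESeq2 and limma-voom and 1 in each fit with 1 tumour left out. Ifi205 had -4.42 with limma-voom and -3.71 to -2.62 with 1 tumour left out.

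DESeq2 called 2 interferon receptor and signalling genes and 1 inflammasome gene. The median of the signalling list was -0.0265 without the Xist-expressing tumours. That of the type I interferon list was 0.06 without them, and -0.94 to 0.01 with 1 tumour left out. Of the other cluster genes, 1 was called by DESeq2 and by limma-voom, and 0 to 1 with 1 tumour left out (Gm16340, without Fes KO 4).

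With the replicate number as a block, 4 members passed with the macrophage markers and 6 with the interferon genes. Nothing is read from these block counts. The block makes the deviations of same-numbered tumours mirror each other, which the permutation within groups ignores, so its p-values do not hold. With 1 tumour left out and no block, 0 to 8 members passed with the macrophage markers and 0 to 2 with the interferon genes. Both counts were 0 without the Xist-expressing tumours and without Fes KO 2 and Fes WT 3, fits with fewer tumours in which r of Aim2 with the markers was 0.94 and 0.87. With 1 tumour left out, r of Mndal with the macrophage markers (-0.07 over all) ran from -0.2013 to 0.92, the latter without Fes WT 1, and r of Ifi202b with the interferon genes (0.12 over all) from -0.0391, without Fes KO 2, to 0.3517. The latter turned to -0.30 without the Xist-expressing tumours and to -0.0312 without Fes KO 2 and Fes WT 3. The median share of windows found in other genes was 19.1% at 50 bases and 11.4% at 75 bases. Apart from the block counts, the cause of these shifts was not tested. Depth limits Pydc3, Pydc4 and the cluster genes under 10 counts in a tumour.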
